A study of Mus musculus with 12 samples.

Results

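Xenobiotic metabolism is the enzymatic handling of drugs, food constituents and other foreign compounds. The genes described encode the cytochrome P450 Cyp2b10, the carboxylesterases Ces1f and Ces2c, and the conjugating enzymes Gstm1 (glutathione), Sult1a1 (sulfate) and Ugt1a1 (glucuronic acid), 6 of the 991 features that the deposited files list. They were picked by name, 5 of them from the 912 features listed for DSS and Control colon. Ces1f stands also among the 95 features listed for the high-dose decoction, and Cyp2b10 stands only there. None of the 6 is among the 8 features listed for the low dose.

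The study sequenced mouse colon RNA as 12 libraries in 4 groups of 3. BXD_H and BXD_L mice drank 2.5% dextran sulfate sodium (DSS), which injures the colon lining, for 5 days followed by 5 days of water, in 3 repeats, and received Banxia Xiexin Decoction, a Chinese herbal preparation, at 15.2 (BXD_H) or 7.60 (BXD_L) g/kg per day. DSS mice had the same course without the decoction, and Control mice drank plain water. The sources used here give no strain, sex or age. They do not say whether libraries are separate mice, and p-values therefore reflect only how far these libraries spread, which may be technical. The description text of Control replicate 3 names the DSS course and that of DSS replicate 3 names the low dose, against their titles and treatment labels. Titles set the groups here, and results without both libraries are given.

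Foreign compounds are commonly handled in steps. Phase I enzymes such as carboxylesterases and cytochromes P450 hydrolyse or oxidise them, and phase II enzymes attach glutathione, sulfate or glucuronic acid, which makes most products more soluble and easier to export. In the gut these enzymes are made mainly by epithelial cells, and nuclear receptors, the aryl hydrocarbon receptor and the oxidant sensor Nrf2 are known regulators of many of their genes.

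The genes lie on 4 chromosomes (GRCm38, the build of mm10, GENCODE M21). Ces1f (ENSMUSG00000031725) spans 93256236 to 93279747 and Ces2c (ENSMUSG00000061825) 104847068 to 104854483 on chromosome 8. Gstm1 (ENSMUSG00000058135) spans 108012255 to 108017973 on chromosome 3, and Ugt1a1 (ENSMUSG00000089960) spans 88211959 to 88218997 on chromosome 1. On chromosome 7, Sult1a1 (ENSMUSG00000030711) spans 126672865 to 126676432 and Cyp2b10 (ENSMUSG00000030483) 25897620 to 25926624. Promoter windows were searched for every gene with an entry, over the 250 bases before the RefSeq start site (GRCm38.p6). They are shown for the 4 that were lower in DSS, Ces2c, Gstm1, Sult1a1 and Ugt1a1. Gstm1 has 2 start sites, and the one nearest its annotated start was used. RefSeq's promoter table matched 5 of the 6 genes, and Ces1f is the one without an entry. Capitals mark matches, on either strand, to GCGTG (aryl hydrocarbon receptor core) or GTTAAT (HNF1 half-site), and sequences run 5′ to 3′ on the strand of the gene.
Ces2c, chr8:104846818-104847067, plus strand: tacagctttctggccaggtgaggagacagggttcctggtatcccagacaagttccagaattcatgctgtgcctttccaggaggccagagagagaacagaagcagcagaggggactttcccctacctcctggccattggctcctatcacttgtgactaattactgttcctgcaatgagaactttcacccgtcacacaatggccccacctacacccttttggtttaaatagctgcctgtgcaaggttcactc
Gstm1, chr3:108017974-108018223, minus strand: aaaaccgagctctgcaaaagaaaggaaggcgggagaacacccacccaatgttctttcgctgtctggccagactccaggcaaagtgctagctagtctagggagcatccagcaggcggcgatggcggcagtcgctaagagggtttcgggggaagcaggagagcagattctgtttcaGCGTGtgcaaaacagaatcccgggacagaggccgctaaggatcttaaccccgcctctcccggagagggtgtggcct
Sult1a1, chr7:126676419-126676668, minus strand: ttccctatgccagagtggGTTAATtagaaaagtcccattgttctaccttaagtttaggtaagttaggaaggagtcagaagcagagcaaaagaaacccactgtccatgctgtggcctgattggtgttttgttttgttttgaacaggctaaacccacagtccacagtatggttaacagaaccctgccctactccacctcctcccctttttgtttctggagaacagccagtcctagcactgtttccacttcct
Ugt1a1, chr1:88211709-88211958, plus strand: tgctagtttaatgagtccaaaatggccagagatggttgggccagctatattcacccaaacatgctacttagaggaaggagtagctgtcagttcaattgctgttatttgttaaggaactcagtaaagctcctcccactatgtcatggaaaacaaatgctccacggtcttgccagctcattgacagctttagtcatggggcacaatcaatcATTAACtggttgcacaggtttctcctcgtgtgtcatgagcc

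The Gstm1 window held GCGTG once, its nearest base 72 bases before the start site, a motif found in 28.2% of all 32851 promoter windows of this length. GTTAAT, found in 6.43% of them, stood once in the Sult1a1 window, nearest base 227 bases before the start, and once on the opposite strand in that of Ugt1a1, nearest base 36 bases before it. No window of the 4 held the antioxidant response core TGACNNNGC (10.2% of all), the nuclear receptor half-site AGGTCA (14.0%) or the HNF4A core CAAAGTCCA (0.384%). The Cyp2b10 window, not shown, held GCGTG 2 times, nearest bases 97 (opposite strand) and 5 before the start site, and none of the other motifs. Matches to AGGTCA and TGACNNNGC can overlap one another. A match is a run of letters only, and the absence of one says nothing of binding elsewhere.

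Several of these genes have close copies, and the sources used here do not say how the counting treated shared reads. Of the exon bases of Ugt1a1, 82.7% are also exon of 9 other genes: 8 further Ugt1a genes, which splice their own first exon to a common set of later exons, and the antisense gene Gm20528. Of all 50-base stretches in its transcripts 58.2% stand in transcripts of another gene, so its FPKM (fragments divided by gene length in kilobases and by the library total in units of 1000000) cannot be assigned to Ugt1a1 alone. The same share was 36.1% for Ces2c, mostly with Ces2d-ps and predicted genes, 18.9% for Gstm1, led by Gstm2-ps1, 8.7% for Cyp2b10, 6.6% for Sult1a1 and 0.9% for Ces1f. The value of Ces1f is therefore the least exposed to shared reads, as judged at that length.

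All 5 enzymes listed for both groups were lower in DSS than in Control colon, to between 0.360 and 0.507 of the Control mean. The question here is how the DSS course altered the colon. Groups were compared with limma on log2(FPKM + 1), which understates the change of low genes, and a change was called at a Benjamini-Hochberg adjusted p under 0.05 over the 576 features that reached 1 FPKM in at least 3 libraries. All 5 passed that filter and were called lower, beside 20.0% of all tested features called lower, 79.2% called higher and 99.1% called in either direction. How the authors selected the 912 features is not stated, and nearly all of them separate the groups, so the count adds little to the presence of the genes in the list. Their median log2 change was −1.03, beside 0.96 over all tested features and −1.01 over the 115 called lower.

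Gstm1, a mu-class enzyme that couples glutathione to electrophiles, had the highest level of the 5. It stood at 89.1, 80.6 and 129 FPKM in DSS replicates 1, 2 and 3, against 175, 199 and 232 FPKM in Control. The groups did not overlap, with the highest DSS library below the lowest Control library. Means were 99.7 ± 26.1 FPKM in DSS and 202 ± 28.8 FPKM in Control (SD, n = 3 each, as throughout), and the log2 change was −1.03 (SE 0.34, limma adjusted p = 0.0166).

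Sult1a1, which moves sulfate onto small phenols, was next in level. It stood at 69.6, 28.9 and 87.7 FPKM in DSS, against 116, 132 and 177 FPKM in Control. DSS replicate 2 lay far below the other DSS libraries, and the highest and lowest of DSS differed 3.03-fold, the widest spread among the 5. Means were 62.1 ± 30.1 FPKM in DSS and 142 ± 31.8 FPKM in Control, and the log2 change was −1.30 (SE 0.46, limma adjusted p = 0.0211).

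Ces2c, a carboxylesterase of a family known from intestine and liver, stood at 63.4, 33.5 and 68.3 FPKM in DSS, against 86.2, 108 and 132 FPKM in Control. Again DSS replicate 2 was lowest, and the groups did not overlap. The log2 change was −1.01 (SE 0.39, limma adjusted p = 0.0291), with means of 55.0 ± 18.8 FPKM in DSS and 109 ± 22.9 FPKM in Control. In the order of levels Gstm1, Sult1a1, Ces2c, Ces1f and Ugt1a1, neighbours among the first 3 overlapped in DSS and in Control, while Ces2c, Ces1f and Ugt1a1 lay apart from one another in both groups.

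Ces1f, a carboxylesterase described in mouse liver as a lipid hydrolase, had a far lower level than Ces2c in both groups. It stood at 3.16, 2.98 and 4.96 FPKM in DSS, against 9.54, 8.68 and 12.6 FPKM in Control. The groups were well apart, and replicate 3 was highest in each. Means were 3.70 ± 1.09 FPKM in DSS and 10.3 ± 2.07 FPKM in Control, and the log2 change of −1.27 (SE 0.25) had the smallest limma adjusted p of the 5, 0.00346.

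Ugt1a1, the enzyme that conjugates bilirubin and many drugs, was the lowest of the 5 in level. It stood at 0.88, 0.95 and 2.16 FPKM in DSS, against 1.78, 2.89 and 3.55 FPKM in Control. Ugt1a1 reached 1 FPKM in every Control library but in DSS only in replicate 3, so it passed the filter through Control. DSS replicate 3 lay above Control replicate 1, so its groups overlapped. The other 4 enzymes did not overlap, beside 97.2% of all tested features without overlap in either direction. Lower without overlap were 18.6% of all tested features, beside 20.0% called lower, so the lack of overlap is no more than the list gives. The log2 change was −0.70 (SE 0.27, limma adjusted p = 0.0299), with means of 1.33 ± 0.720 FPKM in DSS and 2.74 ± 0.894 FPKM in Control. With library totals of 15.4 to 19.2 (DSS) and 14.4 to 16.7 (Control) times 1000000 fragments, estimated from the spacing of low values, the Ugt1a1 values rest on about 30 to 92 fragments a library in DSS and 57 to 128 in Control. The other 4 rest on at least 160 fragments in every DSS library and 451 in every Control library.

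**Figure D1:**
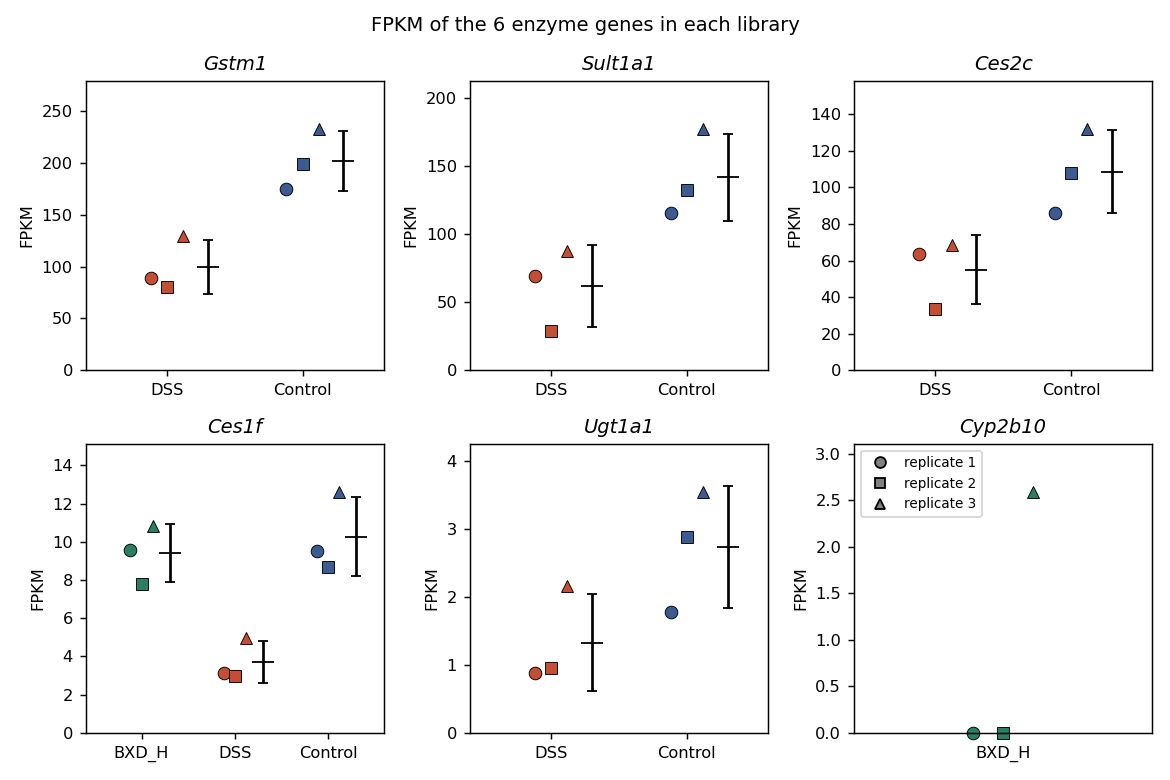
Deposited FPKM of each enzyme gene by library, with markers for replicates 1 to 3 and a bar for mean ± SD (n = 3) beside each group; Cyp2b10 has no bar. The DSS points lie below all Control points for Gstm1, Sult1a1, Ces2c and Ces1f but not for Ugt1a1, Ces1f in BXD_H lies at 7.80 to 10.8 FPKM, and Cyp2b10 is above 0 in BXD_H replicate 3 only, at 2.59 FPKM.

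Within each group the 5 genes shared an order of libraries. Replicate 3 was the highest library for all 5 in DSS and for all 5 in Control. Over all 115 features called lower, replicate 3 was the highest for 60.0% in DSS and 56.5% in Control, so the enzymes followed an order that most such features had. DSS replicate 2 was the lowest DSS library for 4 of the 5, Ugt1a1 being the exception, and for 67.0% of the features called lower. Control replicate 3, whose description text names the DSS course, thus held the highest value of all 6 libraries for each of the 5 enzymes.

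**Figure D2:**
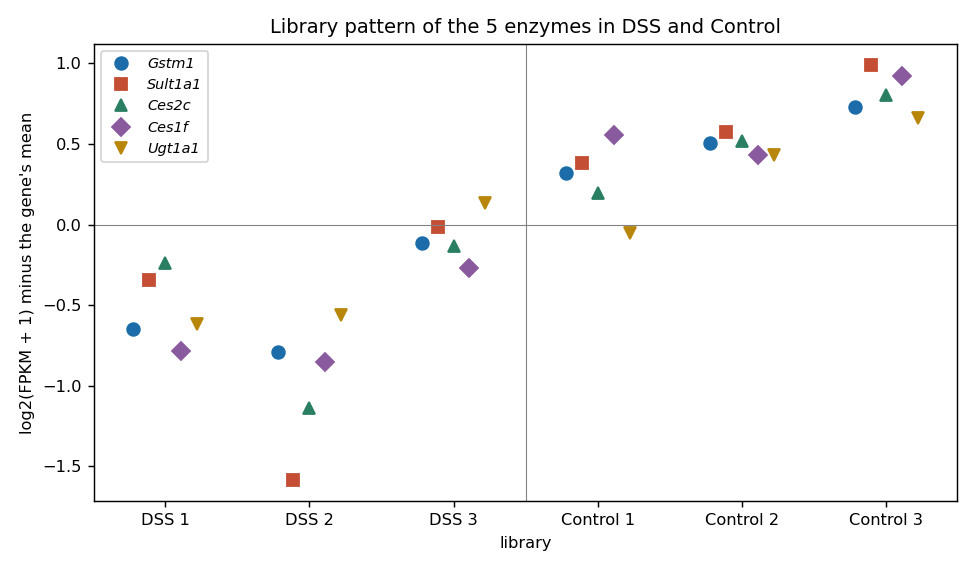
Values of log2(FPKM + 1) minus each gene's mean over the 6 libraries, by library, for the 5 enzymes listed in DSS and Control. Replicate 3 is the highest library of its group for every gene, and Sult1a1 and Ces2c are lowest in DSS 2.

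The calls depended on single libraries more than the sizes of the changes did. Ces1f alone stayed past the threshold with any 1 of the 6 libraries left out (limma adjusted p 0.00337 to 0.0166). Without Control replicate 2 the other 4 did not pass, although their log2 changes were −1.04 for Gstm1 (limma adjusted p = 0.0502), −1.34 for Sult1a1 (0.0521), −1.01 for Ces2c (0.0746) and −0.65 for Ugt1a1 (0.0766). Without Control replicate 3 the same 4 genes did not pass, with log2 changes of −0.93, −1.13, −0.86 and −0.54 in that order. Without DSS replicate 2 the change of Sult1a1 was −0.83, still past the threshold (0.0407), and Ces2c (−0.69) and Ugt1a1 (−0.59) did not pass, and without DSS replicate 1 Ugt1a1 (−0.56) did not. Without both libraries of conflicting description 4 of the 5 passed, and Ces2c (−1.05, limma adjusted p = 0.0865) did not.

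**Figure D3:**
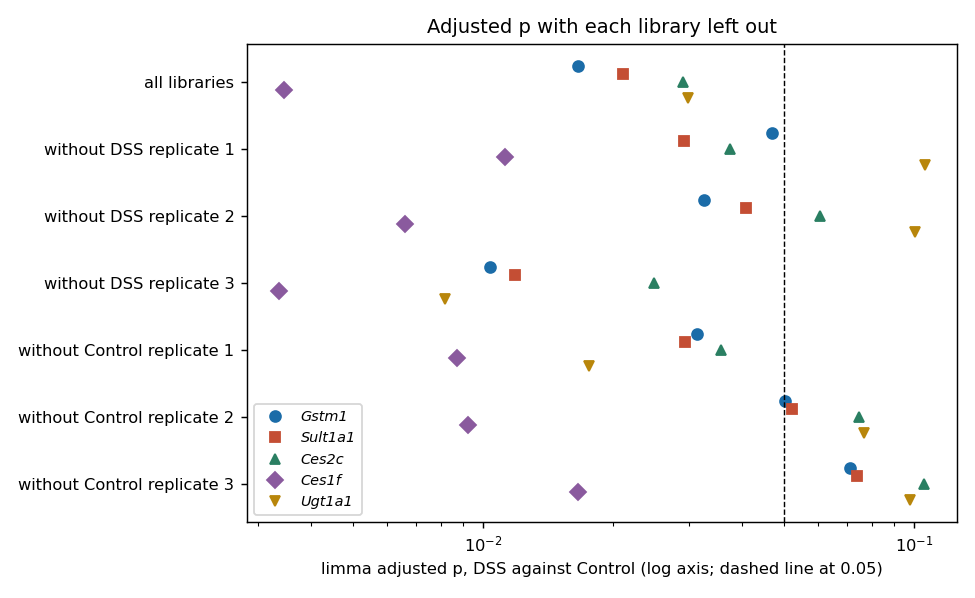
Benjamini-Hochberg adjusted p from limma (log axis) for DSS against Control, with all libraries and with each DSS or Control library left out. Ces1f lies left of the dashed line at 0.05 in every row, and the other 4 lie right of it without Control replicate 2 or 3.

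Other genes of the pathway were read from 8 lists of 290 phase I, conjugation, transport and regulator genes. Beside the 5 enzymes, 16 of these were listed for DSS and Control and 15 passed the low-value filter, of which 10 fell and 5 rose, beside 20.0% of all tested features called lower and 79.2% called higher. Without Control replicate 3, or without both libraries of conflicting description, 6 were called lower, and with libraries centred on their median 1 was called higher. The groups did not overlap in any of the 15, against 97.2% of all tested features. No member of the transporter list (27 genes) or the regulator list (30 genes) was listed, so nothing can be said of them here.

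The 10 that fell changed by −0.76 to −1.41 on the log2 scale, the range in which 4 of the 5 enzymes lie. Among oxidases and reductases 7 of 9 fell. Cyp4f14, an omega-hydroxylase of fatty acids and leukotrienes, stood at 13.2, 11.5 and 17.4 FPKM in DSS, against 40.0, 35.1 and 39.8 FPKM in Control (log2 change −1.41, SE 0.29, limma adjusted p = 0.00415). Cbr3, a carbonyl reductase, stood at 8.17, 7.43 and 10.6 FPKM in DSS, against 19.1, 17.0 and 24.4 FPKM in Control (log2 change −1.12). Maoa and Maob, the monoamine oxidases, fell by 1.05 and 0.87 on the log2 scale, Cyp2c69 by 1.05, the hydroxysteroid dehydrogenase Akr1c14 by 0.90 and the aldehyde dehydrogenase Aldh1a7 by 0.76. Among conjugating enzymes Ugt2b35, a second glucuronosyltransferase, fell by 1.31, the sterol sulfotransferase Sult2b1 by 0.80 and Mettl7b, a thiol methyltransferase in human, by 0.95.

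The 5 that rose were Aldh1a3, Cyp4f18, Sulf1, Sulf2 and Nnmt. Aldh1a3, which makes retinoic acid from retinaldehyde, stood at 9.57, 33.8 and 9.76 FPKM in DSS, against 1.51, 3.12 and 1.66 FPKM in Control (log2 change 2.39, SE 0.46, limma adjusted p = 0.00365). DSS replicate 2, the low library for most of the enzymes, was its high one. Sulf1 and Sulf2, which rose by 1.00 and 1.05, are extracellular enzymes that remove sulfate from heparan chains and do not conjugate foreign compounds. Nnmt, which methylates nicotinamide, rose by 0.61, and Cyp4f18, a leukotriene hydroxylase of mouse neutrophils, by 0.90. Nnmt lay below 1 FPKM in every Control library, at 0.75, 0.65 and 0.98, and passed the filter only through DSS, where it was high. With 1 FPKM required in 6 or more libraries Nnmt was not tested, and 4 of 14 other list genes were called higher. Ces1b, a relative of Ces1f that failed the filter, was listed at 0, 0.06 and 0.27 FPKM in DSS, against 0.88, 1.01 and 1.16 FPKM in Control.

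**Figure D4:**
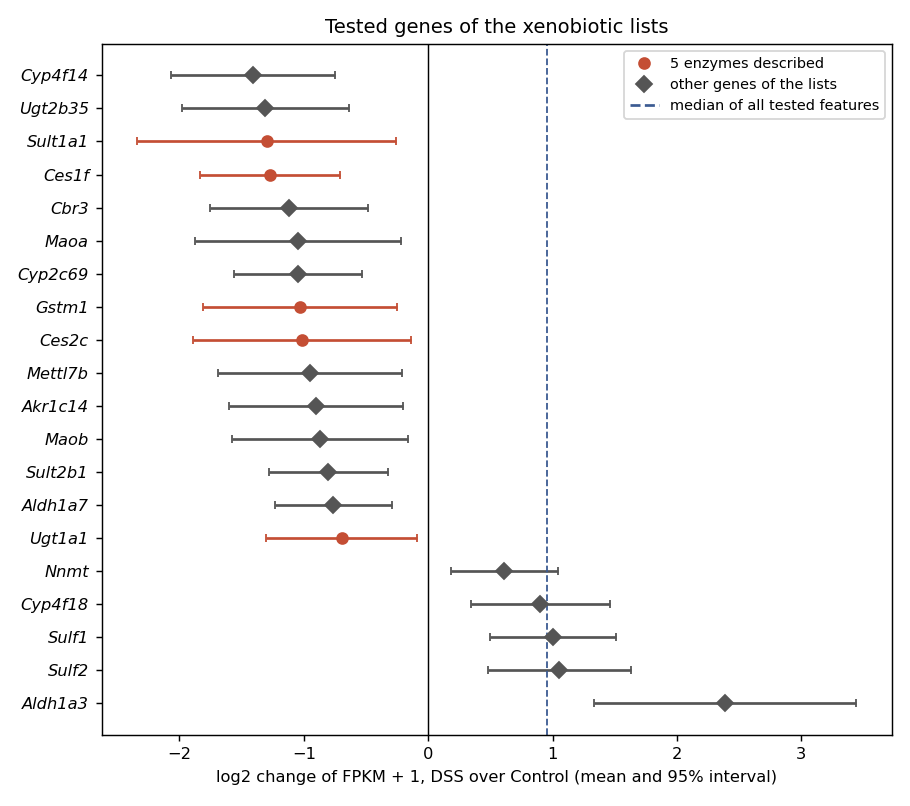
Log2 change of FPKM + 1, DSS over Control, with its 95% interval from limma, for the 20 tested genes of the xenobiotic lists; circles are the 5 enzymes described and diamonds the others. 15 genes lie below 0 and 5 above it, and the dashed line at 0.96 is the median of all 576 tested features.

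Features nearest to each enzyme were found by the root mean square distance between log2(FPKM + 1) values over the 6 DSS and Control libraries, each gene first centred on its own mean. The nearest of 575 to Ces1f were Cbr3 (distance 0.093), Rims4 (0.12) and Cyp4f14 (0.14), with Gstm1 in 4th place (0.16). Sult1a1 was nearest to Slc26a3, the chloride-bicarbonate exchanger of surface colonocytes (0.19), then Selenbp1 (0.22) and Ces2c (0.22). Ces2c was nearest to Tnni1 (0.078), Abat (0.11) and Maob (0.13), Gstm1 to Cttnbp2 (0.102), Itih2 (0.12) and Gsdmc2 (0.13), and Ugt1a1 to Itih2 (0.14), Gm45819 (0.16) and Btnl7-ps (0.17). Ces1f and Ces2c, although both carboxylesterases, were 0.30 apart. These distances are descriptions over 6 libraries of 2 groups that the list itself separates.

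Markers of several cell types moved between the same groups. Of 8 listed colonocyte markers (of 38 in the list) 7 fell, and their summed level was 368 to 694 FPKM in DSS and 990 to 1425 FPKM in Control. The colonocyte marker Car4 stood at 230.1, 72.9 and 369 FPKM in DSS and 589, 743 and 852 FPKM in Control. All 3 tested goblet and secretory markers fell as well, 2 of them from Control levels that spread widely. In Control, Ang4 stood at 608, 84.5 and 6.87 FPKM and Retnlb at 127, 21.4 and 4.52 FPKM, against 4.61, 2.95 and 2.95 FPKM for Sh2d6. Retnlb overlapped DSS, where it reached 4.75 FPKM. Rises were called for all 6 tested B and plasma cell, 6 T and NK cell and 16 fibroblast and matrix markers, 4 of 5 macrophage and 4 of 4 neutrophil markers. Over all tested features 79.2% were called higher and 20.0% lower, so these rises lie near what the list gives. The 4 neutrophil markers lay below 1 FPKM in every Control library and passed the filter only through groups where they were high. Several T and NK cell markers reached 1 FPKM in no Control library but replicate 2, so they too passed it through DSS. The rises of such markers were favoured by the filter and add little. The fibroblast and matrix sum was 754 to 1402 FPKM in DSS and 275 to 335 FPKM in Control. None of the 9 pan-epithelial, 17 hepatocyte or 8 smooth muscle markers was listed, the 1 listed adipocyte marker was not tested, and both listed small intestine markers, Fabp6 and Apob, fell. In bulk colon, fewer cells of a type and less RNA per cell cannot be told apart, and the part of the markers other than those of colonocytes in the enzyme changes was not tested. All listed features of annotated length held 4.26 to 5.40% of the fragments in DSS libraries and 3.57% in each Control library.

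Set against the mean of the 8 tested colonocyte markers in the same library, the differences of 4 of the 5 enzymes changed sign with the choice of markers, and that of Ugt1a1 stayed above 0. Sult1a1 lay 0.82 ± 0.40 above that mean on the log2(FPKM + 1) scale in DSS and 1.30 ± 0.15 in Control, a difference of −0.48 (two-sided exact permutation p = 0.1, the smallest that 3 against 3 allow). The differences were −0.45 for Ces1f (exact permutation p = 0.2), −0.22 for Gstm1 (0.2), −0.20 for Ces2c (0.3) and 0.12 for Ugt1a1 (0.7). The marker Clca4b went against the others, at 46.3, 185 and 91.6 FPKM in DSS and 5.03, 4.97 and 8.10 FPKM in Control, and without it the differences were 0.17 for Sult1a1 (exact permutation p = 0.4) and 0.20 for Ces1f (0.6), and 0.44 for Gstm1, 0.46 for Ces2c and 0.77 for Ugt1a1 (0.1 each). The added 1 weighs most on low levels: the log2 change of Ugt1a1 from Control to DSS was −0.70 with it and −1.05 with 0.1 added. For Ces1f, also low in DSS, these changes were −1.27 and −1.47. The differences from the markers were computed with 1 added only, so the signs for Ugt1a1 and Ces1f may depend on it.

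In colon of DSS mice given the high dose, Ces1f was higher than in DSS mice and overlapped Control. This comparison asks whether the decoction moved what the colitis course had changed. Ces1f stood at 9.55, 7.80 and 10.8 FPKM in BXD_H, against 3.16, 2.98 and 4.96 FPKM in DSS, with no overlap. Means were 9.39 ± 1.52 FPKM in BXD_H and 3.70 ± 1.09 FPKM in DSS, 2.54-fold higher in BXD_H (log2 change 1.16, SE 0.25, limma adjusted p = 0.00291). Of the 17 tested features that both groups list, 70.6% were called higher in BXD_H, 23.5% lower without overlap, and 94.1% did not overlap, so Ces1f was called like most of a list whose selection rule is not stated. It was past the threshold with any 1 DSS or BXD_H library left out (log2 change 1.05 to 1.34) and without both libraries of conflicting description (1.34). Centring each library on its median of the 17 features left 0.17 (limma adjusted p = 0.746), since most of the 17 rose.

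Against Control, Ces1f in BXD_H gave a log2 change of −0.11 (SE 0.25, 95% interval −0.67 to 0.45, limma adjusted p = 0.665), with means of 9.39 ± 1.52 FPKM in BXD_H and 10.3 ± 2.07 FPKM in Control. Of the same 17 features 70.6% were called higher than in Control and 0.00% lower, and 76.5% did not overlap. The interval still allows a level below or above Control, and the sign changed without Control replicate 3 (0.031). With libraries centred on their median of the 17 features the change was −1.96 and passed the threshold (limma adjusted p = 0.00811). The comparisons of BXD_H with DSS and of DSS with Control use the same DSS libraries, so the fall and the higher level of Ces1f are not independent. Among markers of other cells listed for BXD_H, the neutrophil genes Retnlg, Mmp8 and Ngp summed to 11.5 to 265 FPKM over the 3 libraries. Against DSS, Retnlg was higher by 3.17 on the log2 scale (limma adjusted p = 0.00652), the plasma cell gene Ighg1 by 2.28 (0.00233) and the macrophage gene Chil3 by 1.93 (0.00376). Chil3 reached 1 FPKM in DSS replicate 2 only (1.22) and in no Control library. It passed the filter through BXD_H, where it was high, so its call adds little. Retnlg spread widely, at 9.50, 64.5 and 226 FPKM in BXD_H. Other immunoglobulin genes went both ways: Ighv7-4, Igkv17-121 and Igkv5-43 were called higher than in DSS, and Igkv14-126 and Igkv8-28 lower. The colonocyte markers Car1 and Scnn1g, listed for BXD_H only, stood at 373, 455 and 376 FPKM and at 1.34, 1.93 and 2.53 FPKM. The part of all these markers in the Ces1f level was not tested.

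Cyp2b10, which in mouse liver is induced through the nuclear receptor CAR, was listed at 0, 0 and 2.59 FPKM in BXD_H replicates 1, 2 and 3. The value in replicate 3 corresponds to about 68 fragments, while 3 fragments would give 0.083, 0.078 and 0.115 FPKM in the 3 libraries. It was the single one of the 95 features at 0 in any BXD_H library, and with no DSS or Control values it enters no comparison. BXD_H replicate 3 also had the highest neutrophil marker sum (265 FPKM), whose part in the Cyp2b10 value was not tested. Also listed for BXD_H but not for DSS were Cyp2c65 (10.9 ± 2.36 FPKM), Aldh1a2 (4.96 ± 2.78 FPKM), Ces2b (1.35 ± 0.0987 FPKM) and Ces2f (0.483 ± 0.179 FPKM). The relative Ces2c is not in the BXD_H files, so the response of the other 4 enzymes to the decoction was not analysed here.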

How the data were processed

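Per the labels' protocols, TRIzol was used on colon tissue, and the NEBNext Ultra kit prepared the libraries. The submitters' processing notes name bcl2fastq, FastQC and fastp, with no versions, and the build mm10. The aligner, counter, strandedness and rule of selection are each not given in the sources used here. Per the file headers, the authors deposited FPKM, which the files hold to 2 decimals.

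Identifiers were matched to GENCODE M21 (981 of 991). Values were fitted as log2(FPKM + 1) with limma 3.58.1 (R 4.3.3), a model of 4 group means on all 12 libraries that used, for a feature, the libraries listing it and a trended spread. Features with at least 1 FPKM in 3 or more libraries were tested, with Benjamini-Hochberg adjustment over the features that both groups list and a threshold of 0.05. The fit was tested on simulated data. Library totals of 12.4 to 19.2 times 1000000 fragments were estimated for Control, DSS and BXD_H as those at which 90.3 to 94.1% of 14 to 193 features with exons under 1800 bases came out whole, within the file's rounding and at most 0.2 fragments. Shuffled lengths gave at most 78.6%. Approximate fragment numbers rest on these totals and on annotated exon length. Sums of listed FPKM are no depth, since the lists are partial. No 2 libraries of one group had more than 25 equal values.

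The genes and lists were chosen with earlier results of these data known. Named are the 6 genes, every tested gene of the xenobiotic lists, the 3 nearest features of each enzyme and up to 4 genes per marker list. Ces1b, Clca4b, Gstm2-ps1, Hmox1, the immunoglobulin variable genes and the genes listed for BXD_H only were named after their values were seen.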

Additional observations from a re-analysis of the deposited data

Results flagged for a closer look

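Genes of the xenobiotic lists that are listed for BXD_H but not for DSS or Control were looked at again, because they lie outside every comparison and exceed what 3 fragments would give in their library. Cyp2b10 did so in replicate 3 only, at 2.59 FPKM. Cyp2c65, a cytochrome P450, stood at 9.61, 9.38 and 13.6 FPKM in BXD_H replicates 1, 2 and 3. Aldh1a2, a retinaldehyde dehydrogenase, stood at 2.41, 4.54 and 7.93 FPKM. The carboxylesterases Ces2b and Ces2f stood at 1.40, 1.24 and 1.42 FPKM and at 0.37, 0.39 and 0.69 FPKM.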

How the results depend on the processing

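The changes of the 5 enzymes in DSS against Control kept their direction in all 74 recomputations, and 62 of these stayed past the threshold. The 12 that did not were fits with 1 or 2 libraries left out, which also have fewer samples. Ugt1a1 was not tested where 1 FPKM was required in 6 or more libraries, so it has 14 recomputations, against 15 for each other enzyme. The number of the 5 called lower was 1 to 5 with 1 library left out. Of the other 15 list genes 6 to 10 were called lower with 1 library left out and 6 without both libraries of conflicting description. Over all features, 456 rises and 115 falls became 708 rises with no filter and 295 with at least 1 FPKM in 6 libraries, where other numbers of features were tested. Centring libraries on their median lowered every log2 change by 0.81, which left 70 rises and 1 of the 5 rises among the other list genes, since most listed features rose. Centring lowered the changes of BXD_H by 0.99 against DSS and 1.85 against Control, so that Ces1f stood at 0.17 and −1.96, the second past the threshold (limma adjusted p = 0.00811). Ces1f in BXD_H against Control was −0.22 to 0.031 with 1 library left out, above 0 without Control replicate 3 (0.031), without both libraries of conflicting description (0.031) and without BXD_H replicate 2 (0.0020). Relative to colonocyte markers, leaving out Clca4b, an alternative chosen after seeing the data, turned the sign for Ces1f (0.20), Ces2c (0.46), Gstm1 (0.44) and Sult1a1 (0.17). Pan-epithelial markers could not replace them, since none is listed. With the replicate number as a block, 455 rises, 113 falls and all 5 enzymes were called (limma adjusted p for Ugt1a1 0.00945), and no call on the 5 enzymes or on Ces1f in BXD_H changed. Over all tested features, deviations of same-numbered DSS and Control libraries correlated little (r −0.052, 0.021 and 0.079), and not every library correlated best with its own number. Yet replicate 3 was the highest library of both groups for all 5 enzymes. Replicate 2 was the highest for 64.5% (DSS) and 61.2% (Control) of features called higher. These values do not settle whether same-numbered libraries are linked.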

Other observations

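Hmox1, the heme oxygenase that is a textbook target of the oxidant sensor Nrf2, was called higher in DSS, as were 79.2% of all tested features. It stood at 7.48, 18.9 and 6.65 FPKM in DSS, against 3.22, 4.49 and 3.10 FPKM in Control (log2 change 1.25, SE 0.37, limma adjusted p = 0.0106). DSS replicate 2, lowest for 4 of the 5 enzymes, was its highest library. The part of Nrf2 in any of these changes was not tested. Gstm2-ps1, a processed pseudogene on chromosome 5 that shares more 50-base stretches with Gstm1 than any other gene does, stood at 3.46, 2.01 and 3.18 FPKM in DSS, against 6.24, 6.49 and 7.60 FPKM in Control (log2 change −1.02, SE 0.23, limma adjusted p = 0.00493). Whether its reads came from Gstm1 was not tested.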
